A study of Mus musculus with 5 samples.

Results

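The 9 aquaporin genes Aqp1, Aqp2, Aqp3, Aqp4, Aqp5, Aqp7, Aqp8, Aqp9 and Aqp11 were followed in the luminal layer of the mouse uterus before and after blastocyst attachment. Their rows were picked by name, as those of the gene count table that carry these symbols, and they were 9 of 23420 genes. The set was chosen with earlier results of these data known. RNA-seq counts were available for 5 libraries. They sampled day 3 of pregnancy in the morning, day 4 in the morning and again in the evening, and 2 places on the morning of day 5, the layer away from the attached embryo and the layer surrounding it. Values for the 5 libraries are given throughout in that order. The day 5 libraries are also described as Mpole (away) and Ampole (around). In the abbreviations of the study, M is the mesometrial pole and AM the anti-mesometrial pole. Nearness to the embryo therefore cannot be told apart from the pole. All 5 libraries came from wild-type C57BL/6N females, with day 1 as the day of the vaginal plug, and the luminal layer was cut from frozen sections by laser microdissection. The groups differed in handling as well as in day. Oviducts were flushed for 8-cell embryos on day 3, 1 uterine horn was flushed and the other one frozen on day 4, and the day 5 mice had received 1% Chicago blue intravenously to show the implantation sites. The number of mice behind each library is not given in the sources used here. Each condition had 1 library, so no difference has a replicate check and no p-value is given for any of them. The 95% intervals given below, exact Poisson for a level and exact Clopper-Pearson for a ratio of counts, cover counting error only.

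Aquaporins are membrane proteins that let water, and in some members glycerol, move across cell membranes along an osmotic gradient or a concentration gradient. The classical water channels include Aqp1, Aqp2, Aqp4, Aqp5 and Aqp8. Aqp3, Aqp7 and Aqp9 are aquaglyceroporins, which also pass glycerol, and Aqp11 is a distant member found mainly in the membrane of the endoplasmic reticulum. In the uterus, ovarian steroids change the water content of the tissue and the amount of luminal fluid, and the lumen closes around the blastocyst before attachment. Aqp3, Aqp8 and Aqp9 are also known from the mouse blastocyst, where trophectoderm moves fluid into the blastocyst cavity.

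The upstream sequences of the 3 aquaporin genes with the highest mean level per length are shown because these genes carried nearly all aquaporin reads. Each window, from RefSeq on GRCm38.p6, runs 5′ to 3′ on the strand of the gene from 250 bases before the annotated start to 50 bases after it. Capitals mark a match to the letters TATAAA in Aqp3 and to AGGTCA, read on the opposite strand as TGACCT, in Aqp11, and the Aqp5 window held neither. The Aqp3 window is chr4:41098134-41098433 on the minus strand, the Aqp11 window is chr7:97738198-97738497 on the minus strand and the Aqp5 window is chr15:99590778-99591077 on the plus strand.
Aqp3: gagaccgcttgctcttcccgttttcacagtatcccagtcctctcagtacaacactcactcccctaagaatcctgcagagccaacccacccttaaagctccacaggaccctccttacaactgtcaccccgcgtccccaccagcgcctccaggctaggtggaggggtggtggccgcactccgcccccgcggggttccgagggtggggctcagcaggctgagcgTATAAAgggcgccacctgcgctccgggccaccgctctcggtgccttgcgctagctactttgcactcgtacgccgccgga
Aqp11: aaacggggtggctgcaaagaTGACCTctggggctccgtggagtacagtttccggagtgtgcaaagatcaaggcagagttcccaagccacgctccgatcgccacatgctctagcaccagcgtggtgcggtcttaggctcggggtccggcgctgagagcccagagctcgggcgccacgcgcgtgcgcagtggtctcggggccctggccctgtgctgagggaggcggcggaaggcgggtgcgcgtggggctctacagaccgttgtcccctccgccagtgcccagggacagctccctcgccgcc
Aqp5: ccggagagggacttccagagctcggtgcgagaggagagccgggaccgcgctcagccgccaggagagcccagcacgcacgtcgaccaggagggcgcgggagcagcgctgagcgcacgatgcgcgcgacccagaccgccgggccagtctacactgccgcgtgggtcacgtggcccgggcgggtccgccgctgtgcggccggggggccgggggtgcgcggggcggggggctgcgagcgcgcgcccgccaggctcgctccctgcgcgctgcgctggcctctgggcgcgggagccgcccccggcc

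The TATAAA match in Aqp3 began 29 bases before the annotated start. These letters, searched on the gene's own strand, were in 8.32% of the 32851 RefSeq promoter windows and in none of the other aquaporin windows. AGGTCA, which is the half-site letters of an oestrogen response element, was searched on both strands, as were the 2 patterns that follow, and was present in 16.3% of all windows. Among the aquaporin genes it was found in Aqp11, beginning 230 bases before the start, and in both listed windows of Aqp7. The letters ACANNNTGT, the core of a progesterone response element, and TTCNNNGAA, the core of a Stat site, were in 6.85% and 8.3% of all windows and in no aquaporin window. The Aqp5 window was the richest of the 3 in G and C, with 79.7% and 46 CpG steps, against 68% and 27 in Aqp11 and 64% and 21 in Aqp3. The median of all windows was 52.7% and 7 CpG steps. The GENCODE annotation starts the Aqp5 gene at chr15:99590782, so nearly all of the Aqp5 window lies inside the gene in that annotation. Windows were matched for 8 of the 9 genes, all but Aqp4.

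In the count table, which uses GRCm38/mm10, Aqp11 lies on the minus strand at chr7:97726379-97738247 with 3 exons and 1322 exonic bases. Aqp3, at chr4:41092724-41098183 with 6 exons, and Aqp7, at chr4:41033074-41048136 with 8 exons, are both on the minus strand and 44587 bases apart. Aqp2 and Aqp5 are neighbours on the plus strand of chromosome 15, at chr15:99579056-99584545 and chr15:99591028-99594829, each with 4 exons and 6482 bases between them. Aqp1 has 4 exons at chr6:55336299-55348555, Aqp8 has 6 at chr7:123462294-123468003 and Aqp9 has 8 at chr9:71110659-71163289, the last on the minus strand. Aqp4, with 5 exons, is on the minus strand of chromosome 18. All 9 are protein-coding in the GENCODE annotation, and no other gene of the table overlapped any of them.

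The libraries held from 15334674 to 19529491 counts, and from 15274 to 15888 genes had at least 1 count. A floor of 3 counts corresponded to between 0.161 and 0.19 CPM, which are counts scaled to 1e6 per library with TMM factors. Uterine epithelium markers were abundant in each library, with 8 of 8 detected and a summed level between 3998 and 7692 CPM, so the tissue label was met. The library around the embryo also held markers of other cells. All 9 of 9 trophoblast and embryo markers were above the floor there, with a summed 104 CPM, whereas 2 or 3 were above it in the other 4 libraries, with between 4.84 and 12.6 CPM. Tfap2c (39.1 CPM), Eomes (35.4 CPM) and Elf5 (18.4 CPM) supplied most of the 104 CPM and were also counted in the other 4 libraries. Of the 9 markers, Cdx2 (22 counts), Pou5f1 (68), Nanog (10), Gata4 (54) and Fgf4 (13) were counted around the embryo and were at 0 in the other 4 libraries. Smooth muscle markers summed to 395 CPM around the embryo against 10.9 to 31.8 CPM elsewhere, of which Des supplied 354 CPM. Gland markers summed to 30.4 against 1.26 to 4.23 CPM, of which Lif supplied 17.7 CPM and Foxa2 1.22 CPM. Foxa2 was higher on day 3 morning (1.84 CPM) and day 4 morning (2.84 CPM). The study states that on day 5 Lif is induced in stroma around attached embryos, so Lif is not particular to glands here. Endothelium markers had no common direction. Their sum was 106 CPM around the embryo against 17.5 to 52.8 CPM elsewhere, but Cdh5 alone supplied 71.4 CPM of it, and around against away 2 of the 8 were higher and 2 lower by over 2-fold with a median log2 change of -0.44. Leukocyte markers summed to 89 CPM there against 235 to 344 CPM, with 4 of 5 lower by over 2-fold around than away and Cd68 higher. Stroma markers summed to 401 CPM against 472 to 544 CPM, with 2 of 8 lower (Dcn, Col3a1) and Hand2 higher by over 2-fold around than away. Of the epithelium markers 4 of 8 were higher and 0 lower in this comparison. Of all genes that averaged 1 CPM or more, 13.4% were higher and 15% lower in it. Red cell markers were at 3.79 CPM or less in every library. The part of these markers in the results below was not tested, and in bulk libraries fewer cells of a type cannot be told apart from less RNA per cell.

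**Figure D1:**
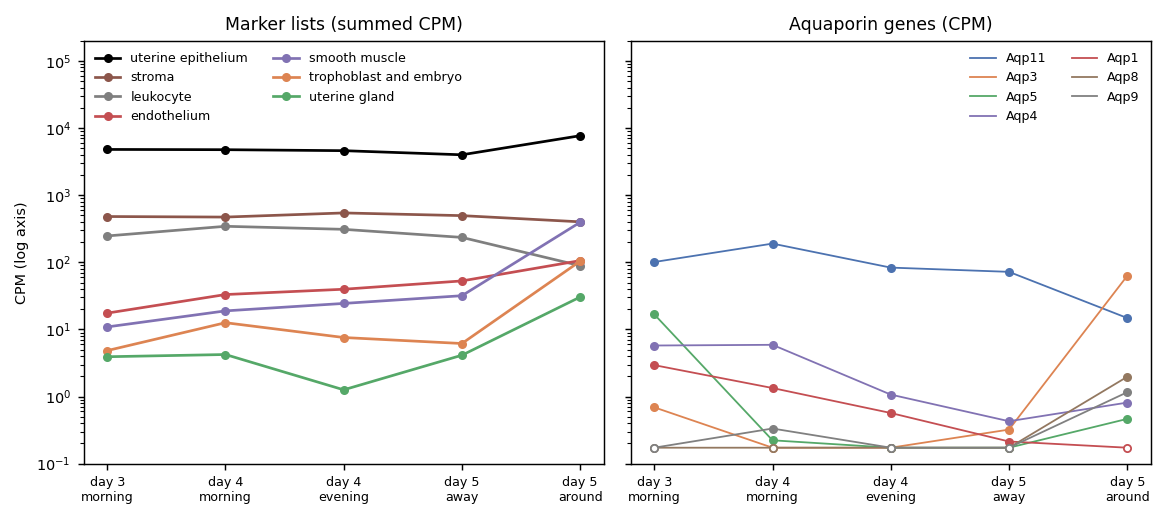
Summed CPM of marker gene lists (left) and CPM of 7 aquaporin genes (right) in the 5 libraries, both on log axes, with open symbols for genes with 3 counts or fewer, which are drawn at the mean floor of the 5 libraries. Around the embryo, trophoblast and embryo markers reached 104 CPM, most of it from Tfap2c, Eomes and Elf5. Smooth muscle markers reached 395 CPM there, most of it from Des. In that library Aqp3 was at 62.8 CPM and Aqp11 at 14.8 CPM.

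The aquaporin reads of the luminal layer came mostly from Aqp11 until day 5, and from Aqp3 around the attached embryo. Compared per length in RPKM (reads per kilobase of gene length, scaled to library size), Aqp11 made up 84.8, 98.7, 99.2 and 99.3% of the summed aquaporin level in the first 4 libraries. Around the embryo its share was 22.8% and that of Aqp3 was 72.6%. In counts, Aqp3 took 76.4% of the aquaporin reads around the embryo (74.1 to 78.6%, exact binomial) and Aqp11 18% (16.1 to 20.1%). The summed level over all 9 genes was 89.8, 146, 63.6, 54.9 and 49 RPKM. The sum around the embryo was thus close to that away from it, while Aqp11 and Aqp3 had changed places.

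**Figure D2:**
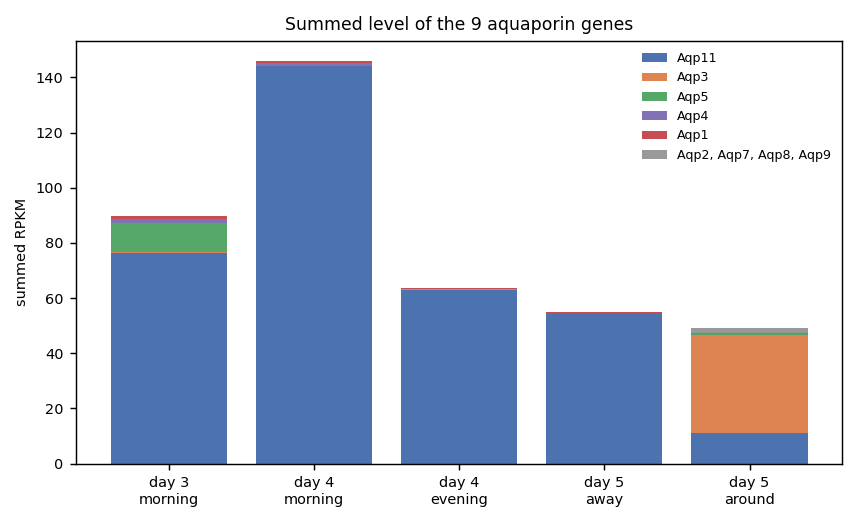
Summed RPKM of the 9 aquaporin genes in each library, with bar segments for the single genes. Aqp11 fills from 84.8% to 99.3% of the bar up to day 5 away from the embryo, and Aqp3 fills 72.6% of it around the embryo.

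Aqp11 was the most abundant aquaporin gene in 4 of the 5 libraries, with a maximum on day 4 morning and a minimum around the embryo. This channel of the endoplasmic reticulum had 1749, 3420, 1320, 1345 and 255 counts. In CPM these were 101 (96 to 106), 190 (184 to 197), 83.4 (79 to 88.1), 72.1 (68.3 to 76.1) and 14.8 (13 to 16.7). The counting intervals of all 5 libraries were apart. Per length, at 144 RPKM, it was the gene of rank 500 among the tested genes on day 4 morning, and at 11.2 RPKM the gene of rank 4963 around the embryo.

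The day 4 morning level of Aqp11 was 1.89-fold (1.78 to 2) that of day 3 morning, and the day 4 evening level was 2.28-fold lower (2.14 to 2.43) than the morning level. Between day 4 evening and day 5 away from the embryo the level differed little. The log2 change was -0.21, and it was 0.01 when the libraries were scaled by their total counts, so its direction depended on the scaling. Around the embryo Aqp11 was 4.87-fold lower (4.26 to 5.59) than away from it and 5.64-fold lower (4.92 to 6.47) than on day 4 evening. Against day 4 morning, its highest level, the fold around the embryo was 12.9. Clns1a, the closest neighbour in the table at a gap of 5585 bases, had 1843 and 1566 counts in the 2 day 5 libraries, a log2 change of -0.12.

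Aqp3 was near the floor before attachment and away from the embryo, and was the most abundant aquaporin gene around it. This aquaglyceroporin of basolateral epithelial membranes had 12, 2, 3 and 6 counts in the first 4 libraries and 1081 around the embryo. In CPM the first 4 values were 0.691, 0.111, 0.19 and 0.322, and the last was 62.8 (59.1 to 66.6). The count around the embryo was 195-fold (89.4 to 533) that away from it and 331-fold (113 to 1608) that of day 4 evening, with wide intervals since the lower counts were 6 and 3. Per length, at 35.6 RPKM, Aqp3 exceeded 83% of the tested genes around the embryo. The summed epithelium, gland, smooth muscle, endothelium and trophoblast and embryo markers described above were also highest in this library. Aqp3 was at 12 counts on day 3 against 2 on day 4 morning, which is 6.2-fold lower with an interval of 1.38 to 57.1.

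**Figure D3:**
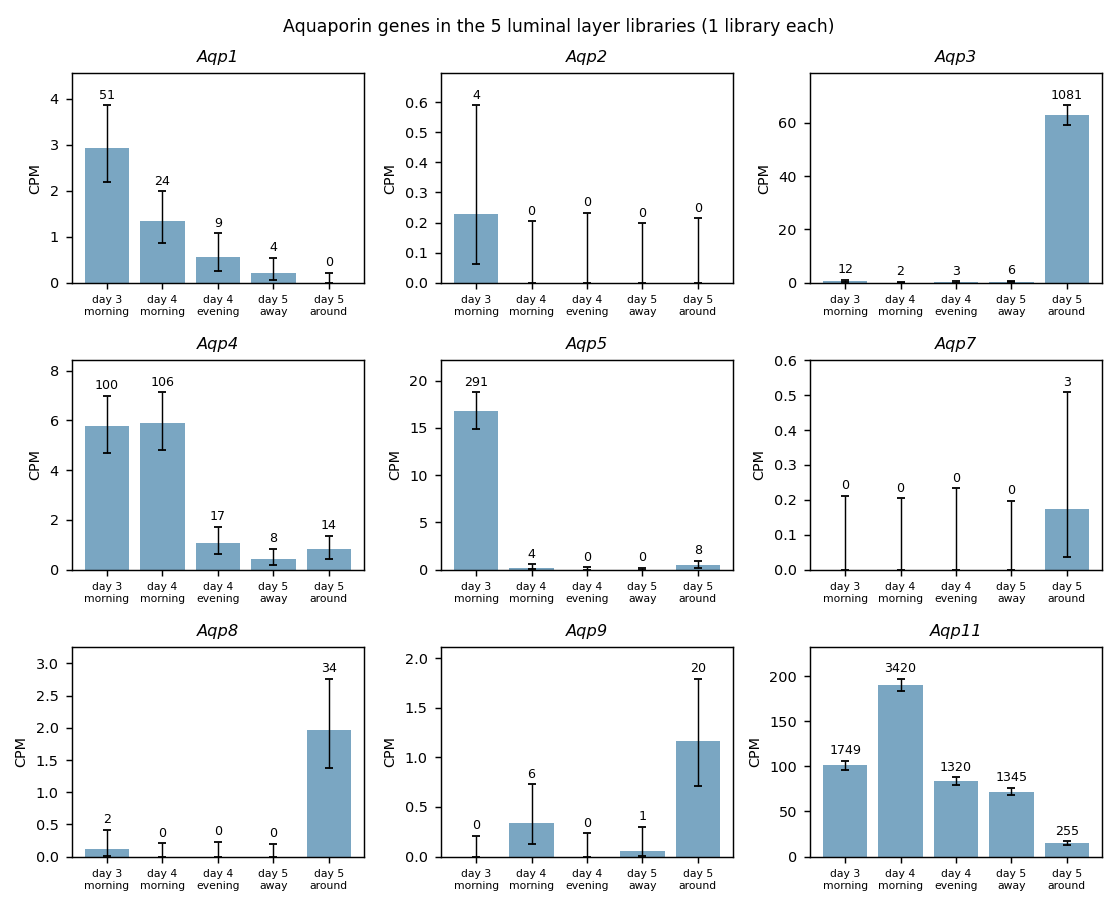
CPM of each aquaporin gene in the 5 libraries as bars from 0, each panel on its own linear scale, with exact 95% Poisson intervals of the count as error bars and the count itself above each bar. Aqp11 was highest on day 4 morning at 190 CPM, Aqp3 around the embryo at 62.8 CPM and Aqp5 on day 3 morning at 16.8 CPM.

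The other aquaglyceroporins were far lower than Aqp3. Aqp9, known best from liver, had 0, 6, 0 and 1 counts in the first 4 libraries and 20 around the embryo, or 1.16 CPM (0.709 to 1.79). Its ratio to the 1 count away from the embryo was 21.7-fold with an interval of 3.46 to 898. Against day 4 morning the ratio was 3.48-fold. Aqp7, the aquaglyceroporin of fat cells, had 3 counts around the embryo and 0 in the other 4 libraries, and was therefore not above the floor in any of the 5.

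Among the water channels, Aqp8 was highest around the embryo and Aqp5 on day 3. Aqp8, which also passes small solutes such as ammonia and hydrogen peroxide, had 2 counts on day 3, 0 in the next 3 libraries and 34 around the embryo, which was 1.97 CPM (1.37 to 2.76). Set against 3 counts in place of 0, Aqp8 was at least 12.3-fold higher around the embryo than away from it and at least 10.4-fold higher than on day 4 evening. These bounds leave out the counting error of the 34 reads, and the lower limits of the exact intervals were 9.45 and 8.02. Like Aqp3 and Aqp9, it was highest in the library around the embryo. The summed epithelium, gland, smooth muscle, endothelium and trophoblast and embryo markers were highest there too, and their part in these values was not tested.

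Aqp5 was counted mostly on day 3. This water channel, known from the apical membrane of secretory epithelia, had 291, 4, 0, 0 and 8 counts. The day 3 level was 16.8 CPM (14.9 to 18.8) or 10.8 RPKM, which was 12% of the summed aquaporin level, second to Aqp11. On day 4 morning it was 75.2-fold lower (29.1 to 278). The 8 counts around the embryo were at least 2.89-fold above the floor away from the embryo and at least 2.45-fold above that of day 4 evening, with lower limits of the exact intervals at 1.85 and 1.57. At 0.465 CPM they lay far under the day 3 level. The adjoining Aqp2, the water channel of the kidney collecting duct that vasopressin regulates, had 4 counts on day 3 morning and 0 in the other 4 libraries, and Aqp6, at a gap of 6570 bases on the other side of Aqp5, had 0 counts in all 5.

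Aqp1 and Aqp4 were low from the start and lower later. Aqp1, a water channel of endothelium and many epithelia, had 51, 24, 9, 4 and 0 counts, starting at 2.94 CPM. It was 2.2-fold lower (1.33 to 3.73) on day 4 morning than on day 3, and 2.35-fold lower (1.05 to 5.74) on day 4 evening than in the morning. Its count of 0 around the embryo was at least 3.27-fold lower than on day 4 evening when set at the floor, with a lower limit of the exact interval at 2.15. Among the endothelium markers, Kdr (1.05 CPM), Emcn (1.57 CPM) and Tie1 (0.465 CPM) were also at their lowest around the embryo. Cdh5 (71.4 CPM), Pecam1 (7.2 CPM) and Cldn5 (4.35 CPM) were at their highest there, and the part of endothelium in the Aqp1 values was not tested. Aqp4, the water channel of astrocyte end-feet and of some epithelia, had 100, 106, 17, 8 and 14 counts, or 5.76 (4.68 to 7), 5.9 (4.83 to 7.14), 1.07 (0.626 to 1.72), 0.429 (0.185 to 0.845) and 0.813 (0.444 to 1.36) CPM. Day 3 and day 4 morning did not differ beyond counting error for Aqp4, with a ratio of 1.03 (0.773 to 1.36). The difference lay between morning and evening of day 4, where Aqp4 was 5.49-fold lower (3.27 to 9.78). Between the 2 places of day 5 the difference of Aqp4 was within counting error, with an interval of the log2 ratio from -0.43 to 2.38.

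By mean RPKM over the 5 libraries the order was Aqp11 (69.8), Aqp3 (7.27), Aqp5 (2.25), Aqp4 (0.55), Aqp1 (0.366), Aqp8 (0.281), Aqp9 (0.0995), Aqp2 (0.0325) and Aqp7 (0.0138). The places of Aqp3 and Aqp5 rest on 1 library each, since Aqp3 was high only around the embryo and Aqp5 only on day 3. Of the aquaporin genes outside the 9, Mip had 4, 1 and 2 counts and Aqp12 5, 3 and 0 counts on day 4 evening, day 5 away and day 5 around, and both were at 0 in the earlier libraries.

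The counts of aquaporin genes past 2-fold were set beside those of all genes. Of the 9 genes, 5 reached an average of 1 CPM or more, namely Aqp1, Aqp3, Aqp4, Aqp5 and Aqp11, among 12915 such genes in all. Aqp1, at a mean of 1.01 CPM, was just inside this limit and Aqp8, at 0.418 CPM, was the nearest outside it. Aqp3 and Aqp5 passed it through 1 library each. Aqp1 was above 1 CPM on day 3 (2.94 CPM) and day 4 morning (1.34 CPM) alone, and passed through these libraries. Aqp4 was at 5.76 and 5.9 CPM on day 3 and day 4 morning, and at 1.07, 0.429 and 0.813 CPM in the later libraries. It too passed through the libraries where it was high. Aqp1, Aqp3, Aqp4 and Aqp5 thus had to differ between libraries, and the counts are a description. From day 3 to day 4 morning 0 of the 5 were higher and 3 (Aqp1, Aqp3, Aqp5) lower by over 2-fold, against 7.47% and 11.5% of all tested genes. From morning to evening of day 4, 0 were higher and 4 (Aqp1, Aqp4, Aqp5, Aqp11) lower, against 7.21% and 6.95%. On day 5 away from the embryo, 0 were higher and 2 (Aqp1, Aqp4) lower than on day 4 evening, against 12.9% and 12.7%. For Aqp1 these were 4 against 9 counts, with an interval of the fold from 0.74 to 11.8 that includes no difference, and with scaling by library totals 0 of the 5 were past 2-fold here. Around the embryo, 2 (Aqp3, Aqp5) were higher and 2 (Aqp1, Aqp11) lower than on day 4 evening, against 19.1% and 20.7%. Around against away from the embryo the same 4 genes were past 2-fold in the same directions, with 13.4% of all genes higher and 15% lower, and these comparisons share the library around the embryo. 2 of these calls set 4 counts against 0, for Aqp5 between morning and evening of day 4 and for Aqp1 between the day 5 libraries, and the lower limits of their exact intervals, 0.582 and 0.61, leave no difference detectable at this depth. The median log2 changes of the 5 genes in these 5 comparisons were -1.07, -1.19, -0.21, -0.36 and 0.77, and those of all tested genes were 0.00, 0.00, 0.01, -0.02 and -0.05.

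**Figure D4:**
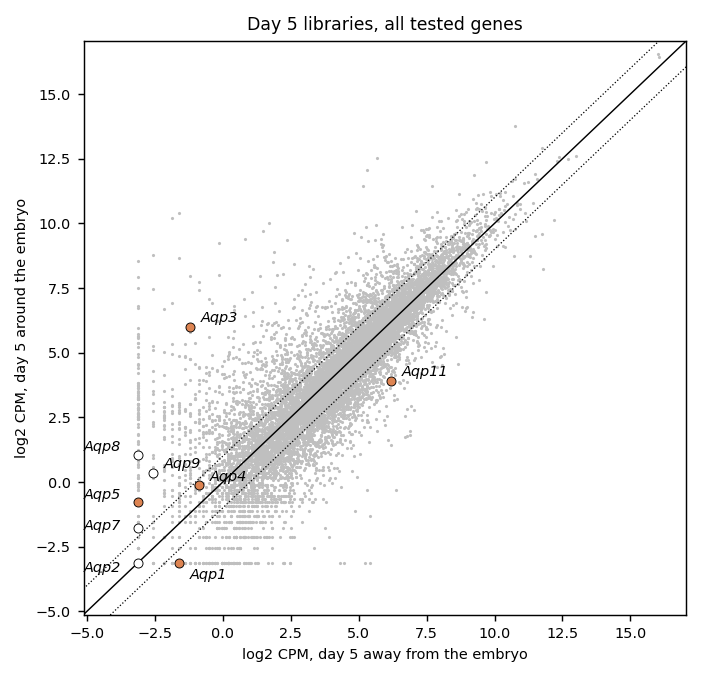
Log2 CPM (prior count of 2) around the embryo against away from it for the 12915 tested genes (grey) and the aquaporin genes, filled for the 5 aquaporin genes that averaged 1 CPM or more and open for the rest. The dotted lines mark 2-fold; Aqp3 lies above them with 6 counts away and 1081 around, and Aqp11 below them with 1345 and 255.

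The genes nearest to the 3 leading aquaporin genes in pattern were taken by the Euclidean distance between centred log2 CPM profiles over the 5 libraries and among genes that averaged 10 CPM or more. For Aqp11 they were Pdk2, a kinase that holds back pyruvate dehydrogenase, at a distance of 0.21, then Slc27a2, a fatty acid transporter and acyl-CoA synthetase, at 0.40 and Fam53b at 0.44. Pdk2 had 295, 548, 235, 228 and 36 counts, with the same day 4 morning maximum and the same minimum around the embryo as Aqp11. For Aqp3 they were Sprr2e, a small proline-rich protein of cornified epithelia, at 0.88, Spp1, which encodes osteopontin, at 0.99 and Slc16a3, a lactate exporter, at 1.05. Sprr2e had 42, 15, 10, 15 and 4398 counts and Slc16a3 had 68, 48, 43, 65 and 6225, so both stood out in the library around the embryo alone. The nearest to Aqp5 were farther off, with Msx2, a homeobox gene, at 1.91, Ltf, which encodes lactoferrin, at 2.28 and Sema3a at 2.93. Msx2 had 1259, 52, 13, 34 and 29 counts and was highest on day 3 as Aqp5 was. Ltf had 6232 counts on day 3 and 874 around the embryo, and was lowest, at 186, on day 4 evening. Aqp3 and Aqp5 had 12 counts or fewer outside the library where each was highest. Their profiles there were set partly by the prior count of 2, so their distances rest mainly on 1 library each.

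Epithelial ion transport was examined as a list of 19 genes for channels, carriers, carbonic anhydrases and regulators such as Sgk1, of which 18 passed the limit of 1 CPM. From day 3 to day 4 morning 3 of them were higher (Slc26a6, Scnn1b, Atp1b1) and 4 lower (Kcnn4, Cftr, Sgk1, Car12) by over 2-fold, beside 7.47% and 11.5% of all tested genes. The furthest apart were Slc26a6, an anion exchanger with 9 and 48 counts, and Kcnn4, a potassium channel with 173 and 6 counts, 29.8-fold lower (13.4 to 82.4). From morning to evening of day 4, 2 were higher (Slc26a6, Car12) and 2 lower (Sgk1, Scnn1a), beside 7.21% and 6.95% of all genes. They were led by Slc26a6 with 10.6-fold (7.84 to 14.6) and Sgk1, a kinase that activates the epithelial sodium channel, 9.35-fold lower (8.51 to 10.3). Sgk1 had 13772, 5105, 481, 5584 and 7110 counts, so it was lowest on day 4 evening. On day 5 away from the embryo 2 of the 18 were higher (Sgk1, Slc12a2) and 4 lower (Car2, Scnn1b, Slc26a6, Atp1b1) than on day 4 evening, beside 12.9% and 12.7% of all genes. They were led by Sgk1 and by Car2, a carbonic anhydrase that was 8.96-fold lower (8.68 to 9.25). The median log2 changes of the list were -0.17, 0.16 and -0.12. Of each of these sets, the genes other than the leading pair are named after their values were seen.

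Around the embryo 7 of the 18 ion transport genes were higher and 3 (Car2, Scnn1a, Slc26a6) lower than on day 4 evening, and 7 were higher and 1 (Scnn1a) lower than away from it. Of all tested genes 19.1% were higher and 20.7% lower in the first comparison, and 13.4% and 15% in the second. The median log2 change of the list was 0.70 and 0.75 in these comparisons, against -0.02 and -0.05 over all tested genes. The 8 uterine epithelium markers had medians of 0.64 and 1.02 in the same comparisons. Their part in the change of the list was not tested. Scnn1b, the beta subunit of the epithelial sodium channel, had 14 counts away from the embryo and 333 around it, which was 25.8-fold higher (15.1 to 47.6). The alpha subunit gene Scnn1a went the other way, from 154 to 56 counts, 2.54-fold lower (1.86 to 3.51). The gamma subunit gene Scnn1g, named after its values were seen and under the limit of 1 CPM, had 0, 0, 0, 7 and 70 counts. The genes of the channel's subunits thus differed in direction between the 2 day 5 libraries.

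Glycerol enters or leaves cells through Aqp3, Aqp7 and Aqp9, and 12 genes of glycerol and triglyceride handling were taken as a second list, all of which passed. On day 4 morning 0 were higher and 2 (Gpd1, Lpl) lower than on day 3, and from morning to evening of day 4 none passed 2-fold in either direction, beside 7.47% and 11.5% and then 7.21% and 6.95% of all genes. On day 5 away from the embryo 2 were higher (Gpam, Pnpla2) and 1 lower (Lpl) than on day 4 evening, where 12.9% and 12.7% of all genes were so. Gpam, the first enzyme of glycerolipid synthesis, was 4.19-fold higher (3.41 to 5.2). Around against away from the embryo 3 were higher (Gyk, Abhd5, Plin2) and 3 lower (Mgll, Gpd1l, Gpam), with a median log2 change of 0.52, beside 13.4%, 15% and a median of -0.05 over all genes. Against day 4 evening the numbers were also 3 higher (Gyk, Abhd5, Plin2) and 3 lower (Mgll, Gpd1l, Lpl), with a median of 0.13, beside 19.1%, 20.7% and -0.02 over all genes. Gyk, the kinase that phosphorylates glycerol, had 193, 211, 99, 137 and 1725 counts. It was 13.6-fold higher (11.5 to 16.3) around the embryo than away from it, in the library where Aqp3 was high. Mgll, which frees glycerol from monoglycerides, had 756 counts away and 83 around, 8.41-fold lower (6.7 to 10.7). Abhd5, Plin2, Gpd1l and Pnpla2, and Lpl and Gpam outside the comparisons that they led, are named after their values were seen.

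Of 8 genes of the response to osmotic stress, 6 passed the limit of 1 CPM. None was past 2-fold between morning and evening of day 4, and 1, the chaperone gene Hspa4l, was lower on day 4 morning than on day 3. These counts are near the shares of all tested genes, 7.21% higher and 6.95% lower on day 4 and 7.47% and 11.5% between day 3 and day 4 morning. On day 5 away from the embryo 1 was higher (Slc5a3) and 1 lower (Slc38a2) than on day 4 evening, and around it 1 was higher (Slc5a3) and 1 lower (Trpv4), beside 12.9% and 12.7% and then 19.1% and 20.7% of all genes. Slc5a3, the sodium-coupled myo-inositol transporter, had 469, 637, 1103, 6926 and 6234 counts. It was higher in both day 5 libraries than on day 4 evening, by 5.33-fold (5 to 5.68) away from the embryo and 5.19-fold (4.87 to 5.54) around it. Slc38a2, a neutral amino acid carrier, was 2.41-fold lower (2.34 to 2.49) away from the embryo than on day 4 evening and 2.39-fold higher (2.32 to 2.47) around the embryo than away from it. Trpv4, a calcium channel that opens on cell swelling, had 146, 81, 45, 56 and 6 counts and was 8.62-fold lower (3.72 to 24.5) around the embryo than away from it. Around against away from the embryo 1 of the 6 was higher (Slc38a2) and 2 lower (Trpv4, Slc6a6), beside 13.4% and 15% of all genes. Slc6a6, a taurine carrier named after its values were seen, had 8138 counts away and 3207 around. Slc6a12, a betaine carrier under the limit of 1 CPM and named after its values were seen, had 30 counts around the embryo and from 0 to 2 in the other libraries. The median log2 change of the 6 genes was 0.11 around the embryo against day 4 evening and 0.14 around against away from it, against -0.02 and -0.05 over all genes.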

How the data were processed

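RNA of laser-microdissected luminal layers was extracted with NucleoSpin RNA and amplified with SMART-seq v.4. Per the labels and the methods of the study, the authors aligned paired-end reads to GRCm38/mm10 with HISAT2 and used featureCounts of Subread 2.0.0; the annotation and strand setting are not given in the sources used here. The deposited values are raw counts per gene in 1 table of 23420 genes and 5 libraries, with gene positions and lengths, and without normalization. Names of 27 genes have the form of dates and were kept.

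From these counts, TMM factors (edgeR 4.0.16 in R 4.3.3), CPM, RPKM with the table's gene lengths, and log2 changes of CPM (prior count 2) were computed. Genes that averaged 1 CPM or more counted as tested. Past 2-fold means a log2 change beyond 1. Ratios carry 95% Clopper-Pearson intervals, and a fold against 0 counts was computed against a floor of 3 counts in that library and given as at least that value. Intervals used scipy 1.17.1, tables pandas 2.3.3 and numpy 2.4.6 in Python 3.11.15, and plots matplotlib 3.10.9. The steps were tested on simulated data.

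The aquaporin genes and the other lists were chosen with earlier results of these data known. Named were all 9 aquaporin genes, the 3 genes nearest in pattern to each of the 3 with the highest mean RPKM, neighbours within 10000 bases, and the ends of each list per comparison, of which those of the larger differences are given; genes named otherwise are marked. The letters TATAAA and the scaling without the library around the embryo were chosen after seeing the data. Other alternatives were DESeq2 1.42.0 size factors, library totals with and without Rn45s and Lars2, log2(RPKM + 1), a prior count of 0.5, a fold of 4, a limit of 5 CPM or none and edgeR's exact test at a dispersion of 0.1. Protein sequences were not analysed here.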

Additional observations from a re-analysis of the deposited data

How the results depend on the processing

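The limit of these data is the single library per condition. Of the 9 aquaporin genes, 6 had at most 106 counts in any library, where 1 read more or less moves a ratio. No paired analysis was possible because each condition has 1 library and the labels carry no replicate numbers. Scaling by library totals moved the median log2 change of all tested genes to -0.29, 0.05, 0.23, -0.11 and -0.36 in the order day 4 morning against day 3, evening against morning of day 4, day 5 away and day 5 around against day 4 evening, and around against away. Totals without Rn45s and Lars2 moved it to -0.14, -0.00, 0.14, -0.17 and -0.33. The share of genes past 2-fold that were higher was 39.5, 50.9, 50.5, 48 and 47.2% with TMM, 19.6, 55.2, 64, 44 and 31.5% with library totals and 29.2, 51.4, 58.4, 41.5 and 32.9% without Rn45s and Lars2.

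The aquaporin genes past 2-fold numbered 3, 4, 2, 4 and 4 in these comparisons, and all genes past it 2445, 1829, 3308, 5145 and 3661. With library totals the aquaporin count for day 5 away against day 4 evening was 0, and without Rn45s and Lars2 it was 1. Without a filter on low counts the aquaporin counts were 6 for day 4 morning against day 3 and 7 and 7 for the library around the embryo, and those of all genes were 4368, 3585, 5149, 7800 and 5855. With a mean of at least 5 CPM the aquaporin counts were 1, 1, 0, 2 and 2, and those of all genes 1438 and 1015 in the first pair of comparisons and 2436 in the last. At a fold of 4 the first 3 aquaporin counts were 1, 1 and 0, and all genes numbered 685, 488, 1154, 2272 and 1398. By edgeR's exact test, with the dispersion set to 0.1, which compares libraries and not conditions, the aquaporin genes numbered 1, 0, 0, 2 and 2 and all genes 476, 241, 1077, 2540 and 1400. Leaving out the library around the embryo gave aquaporin counts from 2 to 4 and counts of all genes from 1740 to 3219. The cause was not tested, beyond the fewer or more genes that a filter or a higher fold admits. Of the 44 single values, 44 with DESeq2 size factors, 44 with a prior count of 0.5, 40 with each kind of library totals and 24 with log2(RPKM + 1) stayed within their counting interval. No value past 2-fold changed sign. Aqp11 on day 5 away against day 4 evening went from -0.21 to 0.01 with library totals, and Aqp4 on day 4 morning against day 3 from 0.03 to -0.26 with library totals and to -0.12 without Rn45s and Lars2. With log2(RPKM + 1), a scale which compresses low genes, Aqp3 around against away was 4.95 and Aqp5 on day 4 morning against day 3 was -3.37.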
